A study of Mus musculus with 7 samples.

Results

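Genes of the contractile machinery, calcium handling and energy metabolism of skeletal muscle were followed in RNA from the carotid artery. The set was a given list of 38 gene symbols, and 37 of them had a probe set annotated to exactly 1 symbol, out of 18193 such genes on the array. Xirp2 had none and was not analysed here. Where a gene had several probe sets, the one with the highest mean signal over the 7 arrays stood for it. The tissue came from ApoE-/+ mice, which carry 1 null allele of the gene for apolipoprotein E. In 4 samples the mother was a hypercholesterolemic ApoE-/- mouse and the father was wt (wild type), called here ApoE-/- mother 1 to 4. In 3 samples the mother was a normocholesterolemic wt mouse and the father was ApoE-/-, called here wt mother 1 to 3. Both parents differ between the groups, so an effect of the mother and one of the father cannot be told apart. The labels give no sex, age, strain or batch, and do not say whether each array came from a separate animal, so the p-values measure only the spread between these 7 samples.

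Skeletal muscle fibres contract when calcium released from the sarcoplasmic reticulum binds troponin on actin thin filaments and lets myosin thick filaments pull on them. Fibres come in slow and fast types, which use separate genes for the same parts: slow fibres use Myh7 myosin and the slow troponins, and fast fibres use Myh2, Myh1 or Myh4 myosin, the fast troponins, the Atp2a1 calcium pump and the calcium buffer parvalbumin. The wall of an artery contains smooth muscle, which uses other actin, myosin and regulatory genes. The carotid artery runs through the neck beside skeletal muscles.

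Each value is the linear MAS5 signal of a probe set on the Affymetrix Mouse 430 2.0 array, scaled before deposit so that the trimmed mean of each array was 200. As a measure of background, 27 bacterial probe sets were used, and the highest of them on an array, 10 to 22, is called the ceiling of that array. Between 61.9% and 74.7% of probe sets lay above the ceiling. Levels are compared only within a gene across arrays, because signals of different probe sets do not share a scale. The array of wt mother 2 stood apart in several technical readings. It had the highest ceiling (22), the highest ratio of 3 prime to 5 prime signal for Gapdh (7.80, against 5.03 to 6.56 on the others) and for Actb (6.71, against 2.17 to 5.23), the highest hybridisation control BioC (798.7, against 557.4 to 681.9). It also differed in a marker of sex: Xist, an RNA made from the inactive X of females, was at 5174.1 to 5930.9 on the ApoE-/- mother arrays, against 5334.1, 41.2 and 5662.1 on the wt mother arrays. The part of these readings and of sex in the muscle values was not tested, and results that rest on this array are given with and without it.

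The main pattern was a set of fast fibre genes with a high signal on wt mother 2. On that array, 9 of the 18193 genes had a signal at least 4 times that of each other array, each other array being set at its ceiling where its own signal was lower (0.0495% of genes), and all 9 were members of the muscle set. They were Tnnc2, Myh4, Ttn, Pvalb, Tnni2, Tnnt3, Acta1, Mylpf and Atp2a1, with ratios of 4.40 to 22.5. With the own signals of the other arrays in place of the ceiling, 15 genes reached it (0.0824%), of which 11 were members, Pgam2 and Myot being added, and the others were not. Of the 9 genes, 7 belong to fast fibres and 0 to slow fibres. On each of the other arrays 0 members reached that ratio. Over all genes, 1 gene reached it on ApoE-/- mother 2 and 10 on wt mother 1, and 0 on ApoE-/- mother 1, 3 and 4 and on wt mother 3. This ratio was chosen after the values had been seen. In the test across all probe sets no member passed between the crosses.

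The 250 bases before the transcription start are shown for the 4 of these 9 genes with the highest signals on wt mother 2, since their RNAs were high together on that array. Capitals mark each E-box, CANNTG, the motif bound by the MyoD family of muscle transcription factors. The sequences are from RefSeq, build GRCm38.p6, and are written 5′ to 3′ on the strand of the gene. They lie at chr2:164779735-164779984 (minus strand) for Tnnc2, chr15:78206401-78206650 (minus strand) for Pvalb, chr8:123894776-123895025 (minus strand) for Acta1 and chr11:67237562-67237811 (plus strand) for Myh4. Pvalb has 2 windows in the table and the first listed is shown.
Tnnc2 promoter: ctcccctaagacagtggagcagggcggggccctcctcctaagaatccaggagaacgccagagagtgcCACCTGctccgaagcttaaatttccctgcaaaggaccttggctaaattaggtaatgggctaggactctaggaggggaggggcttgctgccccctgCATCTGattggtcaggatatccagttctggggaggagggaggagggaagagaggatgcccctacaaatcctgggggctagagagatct
Pvalb promoter: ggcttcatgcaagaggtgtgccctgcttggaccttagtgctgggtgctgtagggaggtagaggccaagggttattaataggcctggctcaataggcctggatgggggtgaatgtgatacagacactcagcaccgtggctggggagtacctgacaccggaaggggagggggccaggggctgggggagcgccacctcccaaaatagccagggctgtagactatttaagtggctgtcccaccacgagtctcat
Acta1 promoter: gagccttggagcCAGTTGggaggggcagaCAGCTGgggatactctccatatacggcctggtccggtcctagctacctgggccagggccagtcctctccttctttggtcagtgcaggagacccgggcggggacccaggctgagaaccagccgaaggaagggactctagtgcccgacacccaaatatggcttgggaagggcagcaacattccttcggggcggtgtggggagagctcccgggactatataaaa
Myh4 promoter: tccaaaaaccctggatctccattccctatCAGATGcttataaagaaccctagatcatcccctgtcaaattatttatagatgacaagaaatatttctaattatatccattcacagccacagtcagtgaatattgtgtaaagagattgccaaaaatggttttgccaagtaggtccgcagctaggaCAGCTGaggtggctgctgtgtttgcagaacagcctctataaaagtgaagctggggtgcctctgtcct

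The Tnnc2, Acta1 and Myh4 sequences hold 2 E-boxes each, and in Acta1 and Myh4 1 of them is CAGCTG. The Pvalb sequence holds none, which says only that these letters are not in this window. It holds a site of the MEF2 type, which starts 180 bases before the transcription start, and Myh4 has one at 182 bases. Acta1 and Myh4 each hold a CArG box, the motif of serum response factor, at 73 and 104 bases. Windows were found for 30 of the 38 listed genes. Searched on both strands, CANNTG was in 26 of the 30 windows (86.7%), against 66.0% of the windows of 27025 genes, and CAGCTG, which is 1 form of it, was in 13 (43.3%), against 12.8%. A MEF2 type site was in 7 of 30 (23.3%), against 3.01%, and a CArG box in 3 of 30 (10%), against 1.40%. By fibre type, CANNTG was in 6 of 9 fast windows (66.7%), near the share over all genes, and in 6 of 6 slow windows. CAGCTG was in 4 of 9 fast and 1 of 6 slow windows, and a MEF2 type site in 3 of 9 and 0 of 6. Of the 7 windows of the 9 genes above, 6 held CANNTG, 4 CAGCTG and 3 a MEF2 type site. A match is a description of the letters and does not show binding.

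**Figure D1:**
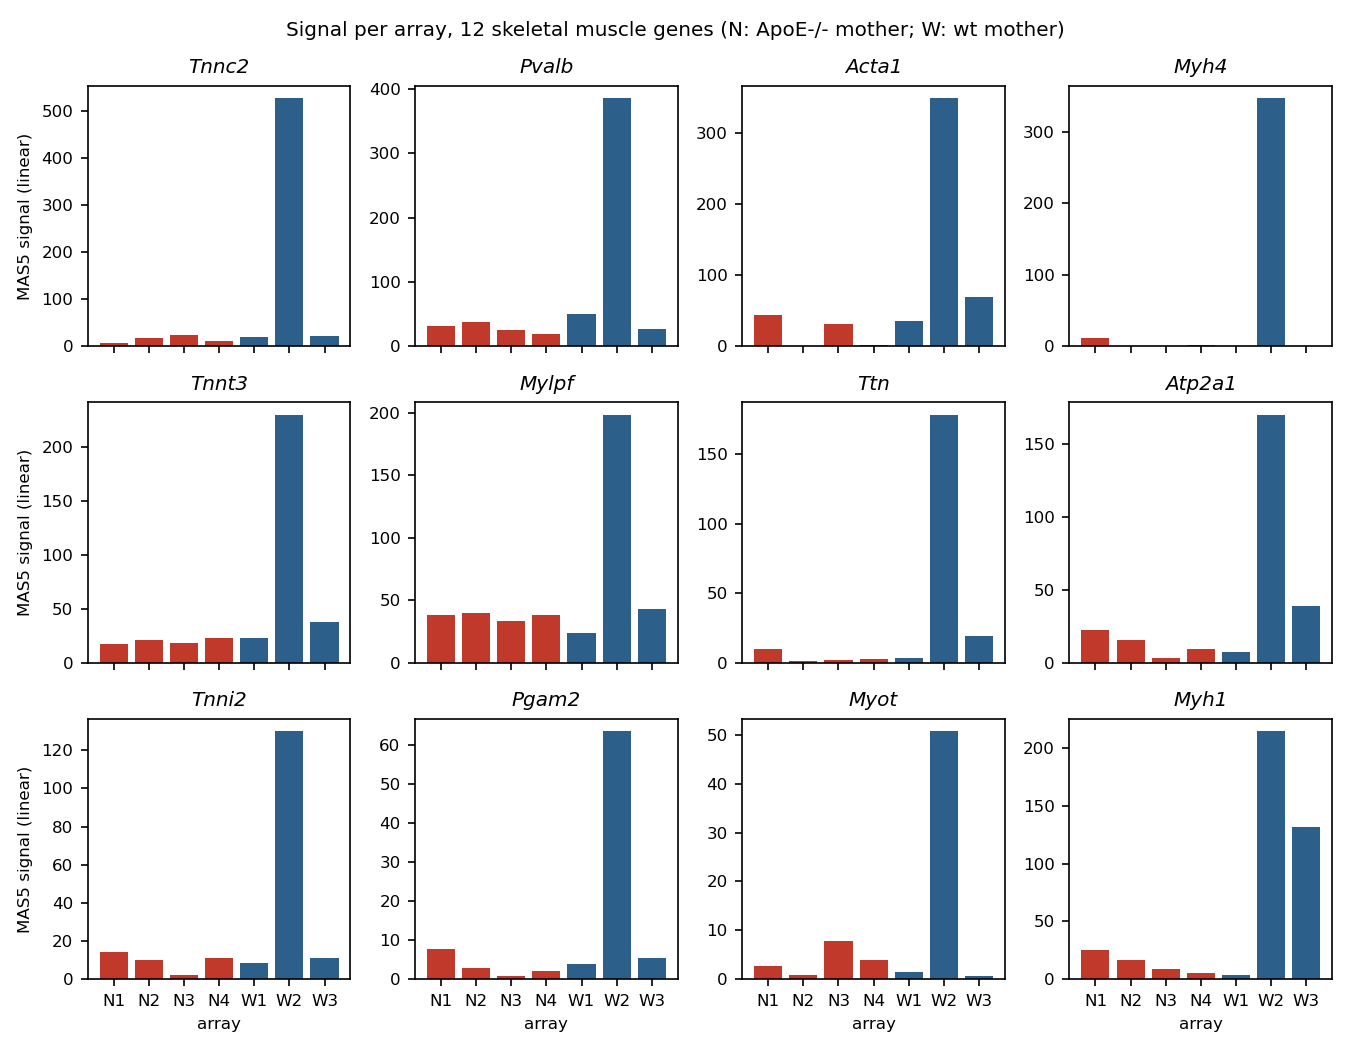
MAS5 signal (vertical axes, linear, each starting at 0) on each array for 12 skeletal muscle genes: the 11 whose own signal on wt mother 2 was at least 4 times that of any other array, in order of that signal, and Myh1. Red bars are the 4 ApoE-/- mother arrays (N1 to N4) and blue bars the 3 wt mother arrays (W1 to W3). The bar of wt mother 2 stands above all others in every panel, and in the Myh1 panel wt mother 3 is second, at 132.0.

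Among the thin filament genes, Tnnc2, the calcium-binding troponin C of fast fibres, had signals of 7.9, 18.2, 23.4 and 11.5 on the ApoE-/- mother arrays, against 18.8, 525.8 and 22.8 on the wt mother arrays. The array of wt mother 2 was high and the other 6 overlapped. The mean was 15.2 ± 6.91 (SD, n = 4) with an ApoE-/- mother and 189.1 ± 292 (SD, n = 3) with a wt mother, giving -2.0 ± 0.92 (SE) as log2 fold change (limma, adjusted p = 0.610), and -0.49 without wt mother 2. Tnnt3, the fast troponin T that ties the complex to tropomyosin, had 17.0, 21.4, 17.9 and 23.1 on the ApoE-/- mother arrays, against 23.0, 229.5 and 37.5 on the wt mother arrays. Both wt mother 2 and wt mother 3 were above every ApoE-/- mother array, and wt mother 1 lay within their range. Its log2 fold change came to -1.49 ± 0.61 (SE, limma, adjusted p = 0.585), and -0.53 without wt mother 2. Tnni2, the inhibitory troponin of fast fibres, had 14.1, 10, 2.1 and 11.0 with an ApoE-/- mother, against 8.7, 130.1 and 11.2 with a wt mother. Only wt mother 2, wt mother 3 and ApoE-/- mother 4 were above their ceilings. Its log2 fold change was -1.40 (limma, adjusted p = 0.689), and -0.24 without wt mother 2.

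Acta1, the actin of skeletal muscle thin filaments, had signals of 43.8, 1.0, 31.4 and 2.3 on the ApoE-/- mother arrays, against 36.3, 348.3 and 69.4 on the wt mother arrays. It was below the ceiling on ApoE-/- mother 2 and 4 and above it on the other 5 arrays. Its log2 fold change of -3.06 had the largest size among the members; its standard error was 0.996 and its 95% interval ran between -5.24 and -0.87, but it missed the threshold (limma, adjusted p = 0.524). The size depends on the number added to each signal before the log2, as 2 of its signals were within background. With 16 and 32 added in place of 2, the log2 fold change was -1.94 and -1.52. Without wt mother 2 it was -2.14 on the main scale, and ApoE-/- mother 1, at 43.8, then lay between the 2 remaining wt mother arrays. Neb, which encodes nebulin, the giant protein along the thin filament, was below the ceiling on every array, at 0.2 to 0.5 with an ApoE-/- mother and 2.0 to 13.1 with a wt mother. The groups did not overlap for Neb, but all of its values lie within background, and no fold is given.

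The slow thin filament genes did not share the high signal on wt mother 2. Tnnc1, the troponin C of slow fibres and heart, had 37.8, 32.5, 36.8 and 22.2 on the ApoE-/- mother arrays, against 17.6, 32 and 16.7 on the wt mother arrays, giving 0.54 ± 0.36 (SE) as log2 fold change (limma, adjusted p = 0.711). Tnnt1, the slow troponin T, was at 5.0 to 25.4 with an ApoE-/- mother and at 15.4 to 22.4 with a wt mother. Tnni1, the slow troponin I, was at or below 6.9 on all arrays and below the ceiling on each.

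Of the myosin heavy chains, Myh4, the chain of the fastest (type IIb) fibres, was above the ceiling on 1 array with the probe set that stands for it. Its signals were 11.2, 0.6, 0.6 and 1.7 on the ApoE-/- mother arrays, against 0.6, 346.7 and 0.4 on the wt mother arrays. The signal on wt mother 2 was at least 17.0 times that of any other array. The fit gave adjusted p = 0.811 (limma), and no fold between the crosses is given, since this probe set was within background on the 4 ApoE-/- mother arrays. Without wt mother 2 it was below the ceiling on every array.

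Myh1, the myosin of type IIx fibres, was high on a second array. It had 24.8, 16.6, 9.0 and 4.9 on the ApoE-/- mother arrays, against 3.6, 215.0 and 132.0 on the wt mother arrays. Of the 4 arrays with an ApoE-/- mother, 1 exceeded its ceiling. The signal on wt mother 3 was 132.0 while Myh4 was at 0.4 there. Another Myh1 probe set gave the same order on those arrays, at 185.5 on wt mother 2 and 117.5 on wt mother 3, and the remaining one stayed at 1.3 to 2.2 throughout. Its log2 fold change came to -1.97 ± 1.03 (SE, limma, adjusted p = 0.646). It was -0.97 without wt mother 2, and -3.61 without wt mother 1, where Myh1 passed (limma, adjusted p = 0.0418) as 1 of 2 probe sets called lower in that fit, or 0.0074% of those tested (0.0666% in either direction). Adult fast myosins are near copies of each other and the name of this probe set marks it as open to cross-hybridisation, so its signal may include other myosin RNAs.

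The remaining myosin chains were low. Myh2, the chain of type IIa fibres, had 3.1, 20.8, 2.3 and 1.7 on the ApoE-/- mother arrays, against 2.9, 4.1 and 3.3 on the wt mother arrays. It was above the ceiling only on ApoE-/- mother 2 (no filter, limma, adjusted p = 0.948). Myh7, the slow and cardiac chain, was at 24.5, 6.0, 34.6 and 22.4 on the ApoE-/- mother arrays, against 13.7, 12.1 and 26.2 on the wt mother arrays. The groups overlapped, and wt mother 2 was below its ceiling (log2 fold change 0.18, no filter, limma, adjusted p = 0.965). Myh3 and Myh8, the embryonic and perinatal chains, were below the ceiling on all 7 arrays, with highest signals of 8.7 and 7.3.

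Light chains and giant or binding proteins of the thick filament were mixed. Mylpf, the regulatory light chain of fast fibres, was above the ceiling on all arrays, at 38.6, 40.2, 33.4 and 38.1 with an ApoE-/- mother, against 23.9, 198.5 and 42.7 with a wt mother. Its log2 fold change was -0.64 (limma, adjusted p = 0.770), and 0.21 without wt mother 2. Ttn, which encodes titin, the molecular spring that spans the sarcomere from Z disc to M line, had 9.8, 0.9, 2.1 and 2.5 on the ApoE-/- mother arrays, against 3.1, 178.6 and 19.1 on the wt mother arrays. For this probe set, the 4 ApoE-/- mother arrays were below the ceiling and 2 of 3 wt mother arrays above it. With the ApoE-/- mother arrays set at their ceilings, the level was at least 1.48-fold lower with an ApoE-/- mother (limma, adjusted p = 0.604). That bound rests on wt mother 2, and without it the wt mother level was 0.57 of those ceilings, so no bound is left.

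Myl1, the essential light chain of fast fibres, did not follow wt mother 2. It had 44.6, 54.8, 67.2 and 52.8 on the ApoE-/- mother arrays, against 100.4, 66.9 and 18.3 on the wt mother arrays, where it was highest on wt mother 1. Mybpc2, the fast myosin-binding protein C, had 35.8, 39.9, 34.9 and 39.2 with an ApoE-/- mother, against 4.2, 56.8 and 25.6 with a wt mother (log2 fold change 0.87, limma, adjusted p = 0.729). Mybpc1, the slow myosin-binding protein C, had 3.5, 15.1, 8.1 and 5.4 on the ApoE-/- mother arrays, all below the ceiling, against 10.8, 28.4 and 13.1 on the wt mother arrays, all above it. Its groups overlapped, and it was highest on wt mother 2 (no filter, limma, adjusted p = 0.738). Myl2 and Myl3, light chains of slow fibres and heart ventricle, were at 10.3 to 27.4 and 26.5 to 35.9 with an ApoE-/- mother, against 11.6 to 26.4 and 12.2 to 35.9 with a wt mother.

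Of the 5 calcium handling genes, both fast fibre members were highest on wt mother 2. Pvalb, which encodes parvalbumin, had 32.1, 37.2, 25.4 and 19.3 on the ApoE-/- mother arrays, against 50, 385.3 and 27.2 on the wt mother arrays. It was above the ceiling everywhere, and the 6 arrays other than wt mother 2 overlapped. Its mean was 28.5 ± 7.81 (SD, n = 4) with an ApoE-/- mother and 154 ± 200.5 (SD, n = 3) with a wt mother, giving -1.50 ± 0.69 (SE) as log2 fold change (limma, adjusted p = 0.610), and -0.39 without wt mother 2. Atp2a1, the pump that returns calcium to the sarcoplasmic reticulum of fast fibres, had 22.5, 15.5, 3.5 and 9.1 with an ApoE-/- mother, against 7.5, 169.7 and 38.6 with a wt mother. Here wt mother 3 was second, and only ApoE-/- mother 1, wt mother 2 and wt mother 3 were above their ceilings. The log2 fold change was -1.67 (limma, adjusted p = 0.639), and -0.63 without wt mother 2.

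Casq1, a calcium store protein of the sarcoplasmic reticulum, was measured on every array, at 398.9, 311.6, 274.6 and 388.0 with an ApoE-/- mother, against 334.1, 434.3 and 582.3 with a wt mother. It was highest on wt mother 3, and its log2 fold change was -0.37 (limma, adjusted p = 0.669). Ryr1, the calcium release channel, had 10.1, 16.9, 1.1 and 6.4 on the ApoE-/- mother arrays, against 11.3, 19 and 6.9 on the wt mother arrays. It was above the ceiling only on wt mother 1 (no filter, limma, adjusted p = 0.865). Cacna1s, the voltage sensor that opens it, was below the ceiling on all arrays, at 2.5 to 12.2 with an ApoE-/- mother and 1.4 to 1.9 with a wt mother, so that its groups did not overlap but lay within background.

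At the Z disc, where thin filaments are anchored, Myot, which encodes myotilin, had 2.7, 0.8, 7.9 and 3.9 on the ApoE-/- mother arrays, against 1.4, 50.8 and 0.7 on the wt mother arrays. It was above the ceiling only on wt mother 2 (no filter, limma, adjusted p = 0.925). Actn3, the alpha-actinin of fast fibres, had 23.8, 4.2, 4.4 and 14.2 on the ApoE-/- mother arrays, against 2.9, 55.1 and 4.8 on the wt mother arrays. It was above the ceiling only on ApoE-/- mother 1 and 4 and on wt mother 2. The log2 fold change was -0.13 (no filter, limma, adjusted p = 0.983), and 0.98 without wt mother 2. Both remaining wt mother arrays were then within background, so the 0.98 measures no fold. Tcap, which encodes telethonin, the cap of titin, was well above the ceiling on all 7 arrays and did not follow the other members. It had 388.4, 1241.6, 237.2 and 447.3 with an ApoE-/- mother, against 337.2, 421.5 and 1263.1 with a wt mother. The 2 high arrays, ApoE-/- mother 2 and wt mother 3, came from different crosses, and wt mother 2 was not among them (log2 fold change -0.25, limma, adjusted p = 0.922). Myoz1, a calcineurin-binding protein of fast fibre Z discs, was at 19.6 to 30.8 with an ApoE-/- mother and 15.1 to 27.6 with a wt mother.

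Of the metabolic members, Ckm, the muscle creatine kinase that buffers ATP, had 54.8, 22, 25.9 and 32.8 on the ApoE-/- mother arrays, against 18.2, 206.8 and 38.4 on the wt mother arrays. Its log2 fold change was -0.71 (limma, adjusted p = 0.788), and 0.25 without wt mother 2. Pgam2, the muscle phosphoglycerate mutase of glycolysis, had 7.6, 2.9, 0.9 and 2.0 with an ApoE-/- mother, against 3.8, 63.5 and 5.5 with a wt mother. It was above the ceiling only on wt mother 2 (no filter, limma, adjusted p = 0.735). Pygm, the muscle glycogen phosphorylase, was above the ceiling on 6 arrays, all but ApoE-/- mother 3, and its groups did not overlap. It had 42.8, 45.4, 19.1 and 51.2 with an ApoE-/- mother, against 69.6, 99.3 and 74.1 with a wt mother.

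The mean of Pygm was 39.6 ± 14.1 (SD, n = 4) with an ApoE-/- mother and 81.0 ± 16 (SD, n = 3) with a wt mother, giving -1.06 ± 0.33 (SE) as log2 fold change, with a 95% interval between -1.78 and -0.34. This missed the threshold (limma, adjusted p = 0.511), and the value was -0.91 without wt mother 2. Eno3, the muscle enolase, was at 99.3 to 133.6 with an ApoE-/- mother and 89.3 to 181.1 with a wt mother. Mb, which encodes myoglobin, the oxygen store of oxidative fibres, had 3.7, 3.5, 18.7 and 23.1 with an ApoE-/- mother, against 6.8, 11.3 and 31.2 with a wt mother. It was above the ceiling only on ApoE-/- mother 4 and wt mother 3. Its log2 fold change was -0.48 (no filter, limma, adjusted p = 0.914), and -0.0012 with the mean of its probe sets. The other probe set was below the ceiling on every array.

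Fbxo32, a ubiquitin ligase gene of muscle atrophy, was strongly measured on all arrays, at 963.9 to 1226.1 with an ApoE-/- mother and 781.8 to 1164.0 with a wt mother (log2 fold change 0.26, limma, adjusted p = 0.710). This probe set was lowest on wt mother 2, at 781.8, while both others of the gene were lowest on wt mother 1, at 361.3 and 61.8. Trim63, the other ligase, was below the ceiling on all arrays, at or below 7.9.

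**Figure D2:**
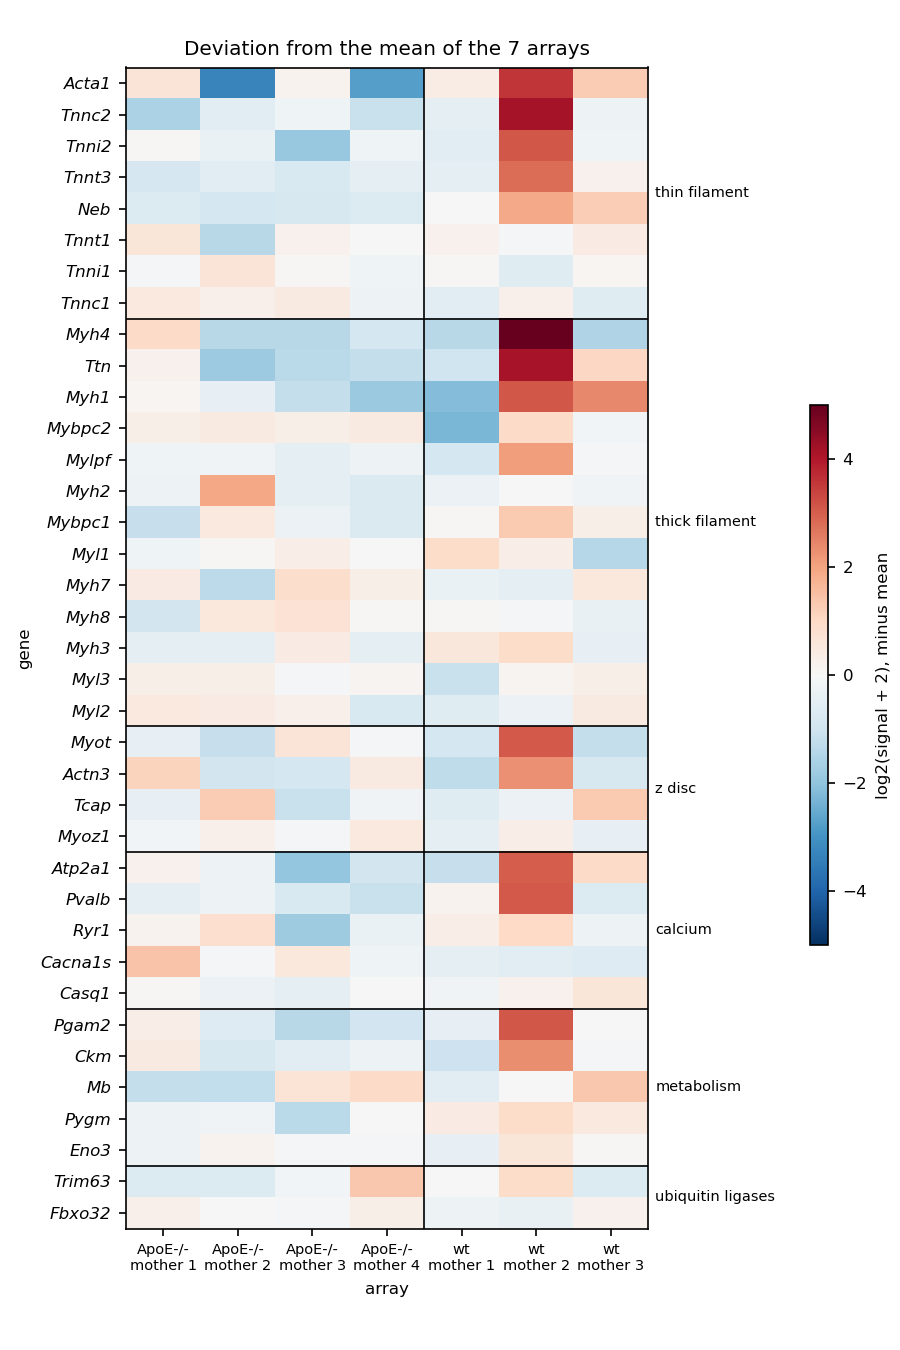
Deviation of each of the 37 genes from its own mean over the 7 arrays, on the log2(signal + 2) scale, with ApoE-/- mother arrays in the 4 left columns and wt mother arrays in the 3 right columns. Rows are grouped by role and ordered by range within a role; the column of wt mother 2 is darkest for Myh4, Tnnc2 and Ttn, and pale for the slow genes Tnnt1, Tnni1 and Tnnc1.

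Fibre type was described by setting each gene against its own mean. The 13 fast fibre genes deviated on wt mother 2 by a mean of 2.38 on the log2(signal + 2) scale, and the 6 slow fibre genes by -0.17. The difference of 2.55 between these means compares with -1.02 to 0.01 on the ApoE-/- mother arrays, and with -0.40 and -0.36 on wt mother 1 and wt mother 3. The mean of each gene includes wt mother 2, so a high value there by itself lowers those of the other arrays. Their negative values are therefore not read as a lean to slow fibres. On that scale the 13 fast genes lay 0.02 to 6.61 above the mean of the other arrays on wt mother 2, and 10 of 13 were highest there. The value of 0.02 is that of Myh2, which was within background on wt mother 2, at 4.1, and shows no rise. The other 12 fast genes were above the ceiling there. For the slow genes the difference from the mean of the other arrays was -0.69 to 0.28, and 0 of 6 were highest on wt mother 2. Mybpc1, the slow myosin-binding protein C, was not on the slow list and was highest on wt mother 2, by 1.53 over the mean of the others. With it added, a choice made after seeing the data, 1 of 7 slow genes was highest there and the difference between the means was 2.34. By comparison, 18.6% of all genes were highest on wt mother 2. Slow genes had low signals throughout, 1.8 to 37.8, and 2 of 6 were above the ceiling on wt mother 2, so a difference in slow fibre RNA near background was not detectable. In these bulk samples, fewer cells of a type and less RNA per cell cannot be told apart.

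**Figure D3:**
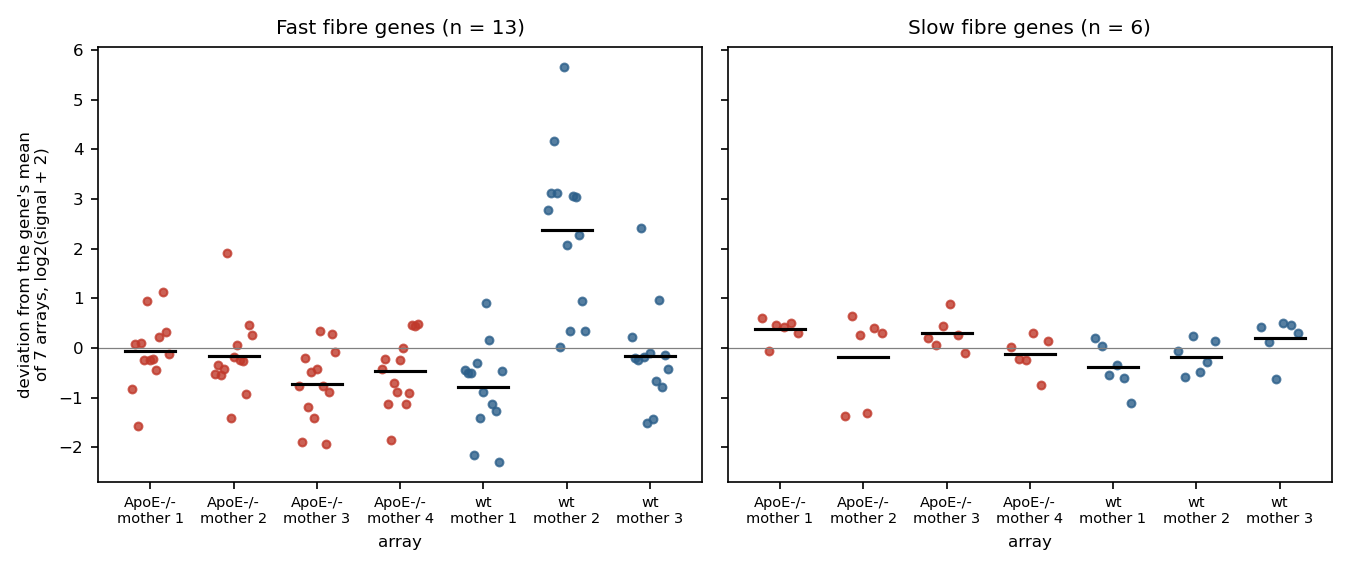
Deviation from the gene's own mean over the 7 arrays, on the log2(signal + 2) scale (vertical axis), for the 13 fast fibre genes (left) and the 6 slow fibre genes (right) on each array. Points are genes, black lines are means over genes, red marks ApoE-/- mother arrays and blue marks wt mother arrays; the fast mean on wt mother 2 is 2.38, while the slow mean there is -0.17.

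Counted by array, 21, 16, 15 and 20 of the 37 members were above the ceiling on ApoE-/- mother 1 to 4, against 20, 25 and 25 on wt mother 1 to 3. The ceiling itself was higher on wt mother 2 (22) than on wt mother 3 (10), which affects these counts. Of the 37 members, 10 were above the ceiling on all 7 arrays and 6 on none. By the probe sets that stand for them, Myh4, Myot and Pgam2 were above it on wt mother 2 and no other array, as were 0.17% of all genes. The highest array was wt mother 2 for 21 members. With it set aside, wt mother 3 was highest for 11 members, ApoE-/- mother 1 for 10, ApoE-/- mother 2 for 6, ApoE-/- mother 3 for 4, and ApoE-/- mother 4 and wt mother 1 for 3 each. Over all genes, 18.8% were then highest on wt mother 3, 21.8% on ApoE-/- mother 1 and 10.4% to 17.2% on each of the others. The 11 on wt mother 3 were Acta1, Tnnt3, Myh1, Mylpf, Atp2a1, Ttn, Mb, Neb, Casq1, Pygm and Tcap. The 10 on ApoE-/- mother 1 were Myh4, Tnni2, Actn3, Ckm, Pgam2, Tnnt1, Tnnc1, Myl2, Myl3 and Cacna1s, with Myl3 level with wt mother 3. Neb on wt mother 3, and Myh4, Tnni2, Pgam2 and Cacna1s on ApoE-/- mother 1, were below the ceiling there.

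Several members had more than 1 probe set, 11 of the 37, with 57 probe sets in all. A second Tnni2 probe set had 125.5 on wt mother 2 and 0.9 to 14.5 on the other arrays, close to the first, while the remaining one stayed at or below 7.6. Of the 6 Ttn probe sets, 3 were highest on wt mother 2, at 178.6, 63.7 and 32.3. Another 2 were above the ceiling on some ApoE-/- mother arrays, at up to 22, and 1 of the 3 was so on ApoE-/- mother 4, at 11.9. The second Myh4 probe set did not show the high signal of the first, at 22.5, 8.3, 10.7 and 12.6 with an ApoE-/- mother, against 7.1, 23.9 and 11.9 with a wt mother. It was above the ceiling on ApoE-/- mother 1 and 4 and on wt mother 2 and 3.

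Between the crosses, 0 of the 20 members that passed the filter on low signals were called in either direction (limma, adjusted p = 0.511 to 0.963), where 0.0037% of the 27015 probe sets tested were called, and 4 had an unadjusted p under 0.05, where 8.25% of probe sets did. With no filter, 0 of 37 were called (0.00222% of 45037 probe sets) and 5 had an unadjusted p under 0.05 (7.01%). A filter on the mean signal can pass a gene through wt mother 2 alone, so the count over members that passed is not read as support. Over all 37 members, 25 had a log2 fold change below 0, against 49.3% of all genes, and the median was -0.48, against 0.01 over all genes. Without wt mother 2, 19 of 37 were below 0, against 48.3% of all genes, and the median was -0.01, against 0.01 over all genes. For 2 of 37 members, Neb and Pygm, every ApoE-/- mother array was lower than every wt mother array, against 3.59% of all genes, and for 1, Cacna1s, every one was higher, against 4.06%.

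**Figure D4:**
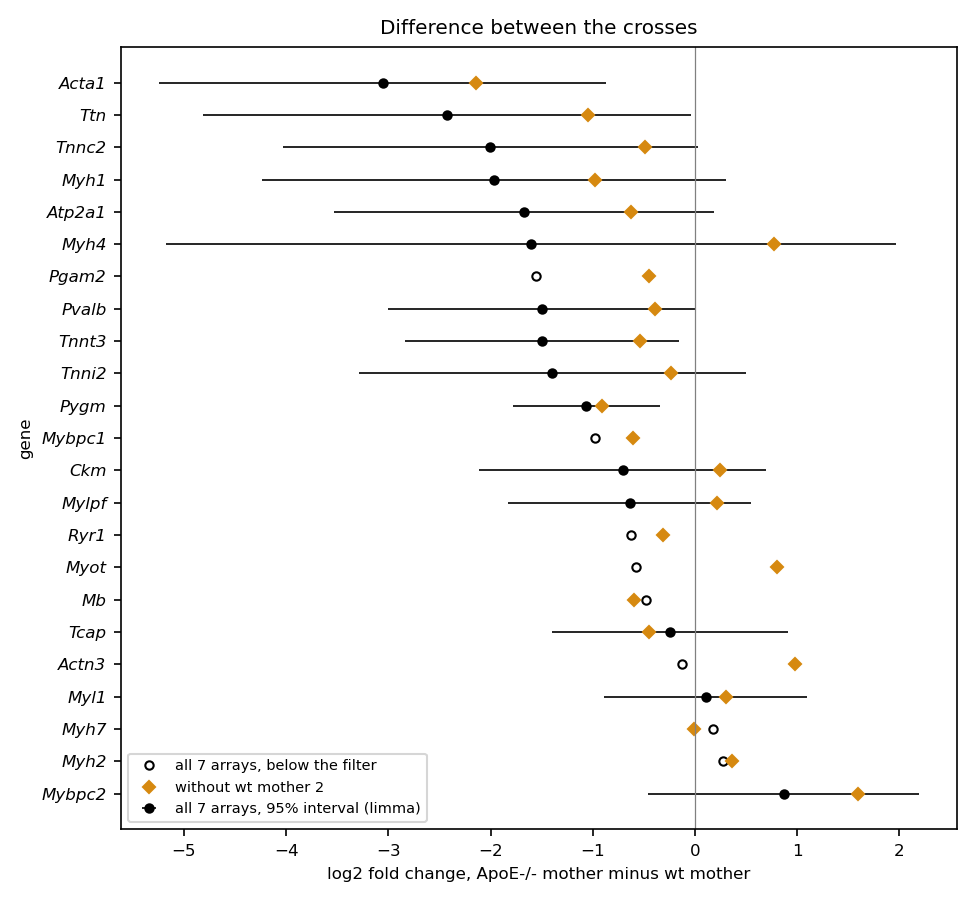
Log2 fold change on the log2(signal + 2) scale, ApoE-/- mother minus wt mother (horizontal axis), for the 23 members above the ceiling on at least 1 array and with a range of at least 2. Black points with 95% intervals are from limma with all 7 arrays, open points are members below the filter, and orange diamonds leave out wt mother 2; Acta1 is at -3.06 and -2.14, and Mylpf at -0.64 and 0.21. The points of Myh4, Ttn, Mybpc1, Myot, Ryr1 and Pgam2 are fitted values and are no measure of a fold. These probe sets were within background on all ApoE-/- mother arrays. Nor is the point of Myh2 a measure, being within background on all wt mother arrays. The same holds for the diamond of Actn3, with both remaining wt mother arrays within background.

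Other muscle genes came from lists of further sarcomere, calcium, metabolic, regulatory and synaptic genes. Of these lists 12 of 23, 9 of 15, 11 of 15, 3 of 10 and 3 of 8 genes, in that order, passed the filter. They gave 0 calls in limma in either direction (adjusted p from 0.428 upwards), where 0.0037% of probe sets were called. Among them 1 metabolic gene was at an unadjusted p under 0.05, as were 8.25% of probe sets. With no filter there were also 0 calls in each list (0.00222% of probe sets). Of 23 further sarcomere genes, 6 were highest on wt mother 2, with a median log2 fold change of 0.01. Myom2, an M line protein, had 8.0, 11.4, 7.4 and 2.8 with an ApoE-/- mother, against 2.4, 33.5 and 16.4 with a wt mother, and Myoz3, a fast fibre Z disc protein, had 2.5 to 29.6 against 20.2, 42.7 and 22.8. Csrp3, a Z disc protein of slow fibres and heart, was at 33.7 on wt mother 2 and 2.7 to 19.9 elsewhere. Mybph, a myosin-binding protein, was above the ceiling only on wt mother 3, at 17.4. Of 15 genes of excitation-contraction coupling, 4 were highest on wt mother 2, and the median was 0.18. Cacnb1, a subunit of the muscle calcium channel, was at 3.1 to 60.5 with an ApoE-/- mother and 36.2 to 63.0 with a wt mother. Trdn, Cacng1 and Sln were at 0.4 to 21.8 on all arrays.

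Of 15 further metabolic genes, 4 were highest on wt mother 2, with a median of -0.03. Pdk4, a kinase that restrains glucose oxidation, was at 1745.9 to 3340.6 with an ApoE-/- mother and 868.4 to 1408.9 with a wt mother, without overlap, and did not pass (log2 fold change 0.99, limma, adjusted p = 0.428). Ckmt2, Art1 and Ppp1r3a were at 0.9 to 45.8. Of 10 myogenic regulators, 2 were highest on wt mother 2 and the median was 0.07. Myod1, which sets the muscle lineage, was at 13.7 to 26.7 with an ApoE-/- mother and at 29.3, 2.9 and 20.7 with a wt mother, lowest on wt mother 2. Myog, Pax3 and Chrna1 ranged from 2.0 to 41.7. Of 8 genes of the neuromuscular junction, 2 were highest on wt mother 2 and the median was -0.22. Among them Musk, the receptor kinase that organises the synapse, was at 4.2 to 56.6 with an ApoE-/- mother and 3.5 to 32.2 with a wt mother, and Chrnd, Chrng and Rapsn were at or below 24.6.

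The genes outside these lists most like the muscle set were ranked by range among 181 of 16157 genes whose Pearson r with the mean deviation of the members was at least 0.9 over the 7 arrays, a measure that mostly follows wt mother 2. Arid3b, Foxs1, Sprr2k, Agbl5, Avpr1a, Trappc5, Mrps18a, Flnc, Krt83, Tex46, Ckap4 and Me3 came first. Arid3b had the widest range, from 4.9 to 55.9. Flnc, which encodes filamin C, an actin crosslinker of striated muscle, was at 295.2 to 363.1 with an ApoE-/- mother, against 282.2, 695.8 and 451.8 with a wt mother. None of the 12 was called (limma, adjusted p of 0.524 or higher for those tested).

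Markers of other cell types were read beside these values. In each list limma called 0 genes, with the filter and without it (0.0037% and 0.00222% of probe sets). Among markers that passed the filter, 2 of 6 heart, 1 of 3 Schwann cell and 3 of 3 thymocyte markers had an unadjusted p under 0.05. So did 2 of 5 brown fat, 1 of 6 endothelial and 0 of 8 smooth muscle markers, against 8.25% of all probe sets. With no filter, 3 of 11 heart and 4 of 6 thymocyte markers did, against 7.01%, and the other counts were unchanged. Summed signals of 11 heart markers were 726.4 to 799.5 with an ApoE-/- mother and 818.8 to 1239.4 with a wt mother, with 818.8 on wt mother 2. Such sums mostly follow the probe sets of strongest signal and are no measure of a list as a whole. The strongest heart marker on every array was Actc1, the heart actin. It had 253.4, 166.6, 238.3 and 285.6 with an ApoE-/- mother, against 385.4, 318.9 and 739.4 with a wt mother. Tnnt2, the heart troponin T, went the other way. It had 95.1, 160.8, 97.2 and 106.7 with an ApoE-/- mother, against 39.8, 41.4 and 42.4 with a wt mother. Its log2 fold change was 1.40 (limma, adjusted p = 0.121). Of the 11 heart markers, 6 had a log2 fold change below 0 and 5 above. On wt mother 2 Myh6, a heart myosin, was at 0.6, Nppb at 5.2 and Mybpc3 at 43, while Myl4, an atrial light chain, was highest there, at 251.3.

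The sums of 3 Schwann cell markers were 5936.2, 3430.8, 5076.3 and 3804.3 with an ApoE-/- mother, against 5209, 4432.6 and 7025 with a wt mother. Sox10 had 83, 12.2, 95.8 and 5.6 with an ApoE-/- mother, against 157.5, 46.7 and 265.9 with a wt mother, and Mbp and Pmp22 were likewise highest on wt mother 3. Sox10 and Mbp were lowest on ApoE-/- mother 2 and 4. Sums of 6 thymocyte markers were 332.5 to 528.9 with an ApoE-/- mother and 37.4 to 141.3 with a wt mother, with 60.2 on wt mother 2. Among them Rag1 was at 133.8 to 174.4 with an ApoE-/- mother and 0.8 to 48.3 with a wt mother, and Dntt at 60.7 to 142.5 with an ApoE-/- mother and 2.6 to 35.4 with a wt mother. Ptcra and Cd8b1 were at 13.9 to 40.5 with an ApoE-/- mother and 0.8 to 16 with a wt mother.

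Sums of 5 brown fat markers were 6260 to 10210 with an ApoE-/- mother and 1416 to 7895 with a wt mother, with 7895 on wt mother 2. Ucp1 was at 3146.6 to 5059.5 with an ApoE-/- mother and 420.1 to 2297.1 with a wt mother, and Elovl3 at 163 to 522.9 with an ApoE-/- mother and 61.8 to 261 with a wt mother. Cidea and Cox8b were highest on wt mother 2, at 4295.8 and 781.5. Sums of 8 smooth muscle markers were 32474 to 40648 with an ApoE-/- mother and 31124 to 39811 with a wt mother, and the groups overlapped for Cnn1, Smtn, Actg2 and Lmod1. Sums of 6 endothelial markers were 3060 to 4383 with an ApoE-/- mother and 2842 to 3811 with a wt mother, and the groups overlapped for Pecam1, Tek, Kdr and Tie1. The part of these cell types in the muscle values was not tested.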

How the data were processed

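RNA from dissected carotid artery was frozen in liquid nitrogen, extracted with RNAqueous-Micro and amplified in 2 cycles with oligo-dT primers before biotin labelling, per the labels' protocols. The deposited values are MAS5 intensities on a linear scale, from GCOS according to notes on processing by the submitters, per the labels, and each array has a trimmed mean (2% at each end) of 200. Amplification from the 3 prime end favours that end of a transcript. No column was unused.

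The probe set annotation names 1 symbol for 34958 probe sets, several for 932 and none for 9211 of 45101. No test included the 64 control probe sets. Crosses were compared with limma 3.58.1 (R 4.3.3, lmFit and eBayes with an intensity trend) on log2(signal + 2). On this scale the change of a low gene depends on the number added, and is smaller with a larger one. The fit took the 27015 of 45037 probe sets whose mean exceeded 23.6, the 40th percentile, and p-values were adjusted by Benjamini-Hochberg at 0.05. The script was tested on simulated data. Depth has no meaning for arrays, and the number of arrays, 4 and 3, limits the precision.

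Members above the ceiling on at least 1 array and with a range of at least 2 on the log2 scale were given on every array. Of every other list up to 4 genes, those of widest range above the ceiling, were named, and Myl4 and Tnnt2 were named after their values were seen. The members and lists were chosen with earlier results of these data known. Alternatives were another pseudocount, filter, normalization, variance model, ceiling, probe set summary and leaving out each array.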

Additional observations from a re-analysis of the deposited data

Results flagged for a closer look

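Myh3, the embryonic myosin heavy chain, had a signal of 5.4 on ApoE-/- mother 3 and 2.0 on each of the other 3 ApoE-/- mother arrays. The gap to the nearest array, divided by the range of the group, exceeded Dixon's critical value for 4 samples, which chance does in about 1 in 20 groups. All 4 values lie below the ceilings of their arrays, that of ApoE-/- mother 3 being 20.4, so the difference is one within background. The group of 3 wt mother arrays was too small for the same test.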

How the results depend on the processing

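No paired analysis was possible because the labels give no replicate numbers that the crosses share. No member was called under any pseudocount, filter, normalization or variance model tried. Leaving out 1 array gave 0 to 1 called members, the 1 being Myh1 without wt mother 1. The members' median log2 fold change was -0.64 to -0.013 with 1 array left out, nearest 0 without wt mother 2, and -0.22 and -0.17 with pseudocounts of 16 and 32, against -0.48 as reported. With 1 array left out, 19 to 27 members were below 0. The cause of these changes was not tested.

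Of 23 members given in full, 11 changed sign under some alternative, and 6 of them without wt mother 2. With 1 array left out the log2 fold change was -1.44 to 0.25 for Ckm, -0.32 to 0.55 for Myh2, -2.82 to 0.77 for Myh4, -0.090 to 0.64 for Myh7, -1.26 to 0.21 for Mylpf and -0.58 to 0.59 for Myl1. It was -0.80 to 0.98 for Actn3, -0.90 to 0.062 for Mb, -0.032 to 1.59 for Mybpc2, -1.35 to 0.80 for Myot and -0.70 to 0.33 for Tcap. The values of Myh2, Myh4 and Myot rest on a cross whose arrays were all within background, and measure no fold. For Actn3 this holds for the 0.98 reached without wt mother 2. Myl1 was also at -0.0088 with a pseudocount of 32.

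The median of the excitation-contraction genes was 0.058 and 0.036 with pseudocounts of 16 and 32, 0.30 with the mean of all probe sets, and -0.078 to 0.19 with 1 array left out. With 1 array left out it was -0.24 to 0.11 for muscle metabolism, -0.11 to 0.090 for the neuromuscular junction genes, -0.16 to 0.19 for myogenic regulators and -0.18 to 0.22 for other sarcomere genes. Above 2 times the ceiling were 12, 8, 5 and 15 members on ApoE-/- mother 1 to 4 and 10, 21 and 19 on wt mother 1 to 3. Above the median bacterial probe set were 33, 31, 32 and 34 members on ApoE-/- mother 1 to 4 and 36, 35 and 33 on wt mother 1 to 3. The alternatives chosen after seeing the data, a ratio of 3 and the other arrays' own signals in place of the ceiling, each gave 11 members high on wt mother 2 in place of 9, where the second rule took 0.0824% of all genes. The fast minus slow difference on wt mother 2 was 1.85 and 1.504 with pseudocounts of 16 and 32, against 2.55 as reported.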
